A study of Mus musculus with 6 samples.

Results

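The intermediate filament genes of myogenic cells were examined in cultured muscle satellite cells (MuSCs), the stem cells of skeletal muscle, as a set of 7 genes chosen by name from the 20654 genes of the count table. The set holds the filament subunits *Vim*, *Des*, *Nes*, *Synm*, *Krt8* and *Krt18* and the filament linker *Plec*, and all 7 were listed. RNA-seq was performed on 3 libraries from control mice, which the labels call wild type and the study's text names *Pax7* CreERT2/+, and on 3 libraries that the labels call *Piezo1* cKO (*Piezo1* flox/flox; *Pax7* CreERT2/+), here termed cKO-labelled libraries, all on a C57BL/6 background. In these mice Cre recombinase is driven from the *Pax7* locus and becomes active with tamoxifen, which was injected to induce the deletion, so that by the study's description both groups carry Cre. MuSCs were sorted as VCAM1-positive cells negative for CD31, CD45 and Sca1, and were grown for 3 d on Matrigel in growth medium with 1 μM 4-hydroxytamoxifen in both groups. Age and sex are not given in the sources used here. The comparison asks which transcripts differ when *Piezo1*, the gene of a mechanosensitive calcium-permeable channel, is deleted in these cells. A count stands for a cDNA molecule, marked before PCR with a unique molecular identifier (UMI) on the oligo-dT primer. The control libraries 1 to 3 held 740936, 931168 and 891531 counts, and the cKO-labelled libraries 810096, 726378 and 769295.

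Intermediate filaments are rope-like polymers that give cells mechanical strength and tie the nucleus, organelles and adhesion sites to each other. Vimentin is the main subunit of mesenchymal cells and of proliferating myoblasts, whereas desmin is the muscle subunit that later surrounds the Z-discs. Nestin and synemin are long subunits that need vimentin or desmin as partners, keratin 8 and keratin 18 pair with each other as the filaments of simple epithelia, and plectin is a large linker between filaments and other structures.

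*Piezo1* itself had 11, 5 and 6 counts (control) and 7, 12 and 9 (cKO-labelled). In these few counts it was not lower there, its log2 fold change being 0.42 (standard error (SE) 0.46, edgeR adjusted p = 0.791). The 95% interval ran from 0.710-fold to 2.51-fold and so includes a lower level, and every direction below rests on the labels. The study assessed the deletion separately, by RT-qPCR and calcium imaging, and no exchange of labels is proposed here. Counts over the whole gene also include transcripts from which the floxed exons are missing.

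To show the upstream sequence of the muscle subunit and of a progenitor subunit, although neither was called, the 250 bases before the RefSeq transcription start are given for *Des*, *Nes* and, as a differentiation gene that varied widely in the same libraries, *Myog*, which encodes the transcription factor myogenin. The sequences are from RefSeq on GRCm38.p6, 5′ to 3′ on the gene's strand, which is the plus strand for all 3. Capitals mark CANNTG, the E-box letters that myogenic basic helix-loop-helix factors can bind, which read the same pattern on both strands.
*Des* at chr1:75360042-75360291: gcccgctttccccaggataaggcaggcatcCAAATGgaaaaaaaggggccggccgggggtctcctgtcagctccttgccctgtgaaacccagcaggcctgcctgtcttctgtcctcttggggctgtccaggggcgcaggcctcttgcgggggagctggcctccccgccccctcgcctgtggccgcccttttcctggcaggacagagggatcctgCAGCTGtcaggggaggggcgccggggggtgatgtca
*Nes* at chr3:87970843-87971092: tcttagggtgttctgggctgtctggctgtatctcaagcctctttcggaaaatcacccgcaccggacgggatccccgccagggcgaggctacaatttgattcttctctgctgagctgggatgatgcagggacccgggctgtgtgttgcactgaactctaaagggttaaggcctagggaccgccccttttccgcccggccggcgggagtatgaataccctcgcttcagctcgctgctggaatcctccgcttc
*Myog* at chr1:134289754-134290003: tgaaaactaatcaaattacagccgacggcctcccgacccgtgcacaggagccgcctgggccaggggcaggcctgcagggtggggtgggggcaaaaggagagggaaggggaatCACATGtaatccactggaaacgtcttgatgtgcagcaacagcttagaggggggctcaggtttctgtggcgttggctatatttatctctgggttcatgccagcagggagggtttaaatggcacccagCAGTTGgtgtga
The *Des* window held 2 matches, beginning 220 and 36 bases before the start, and the second was the word CAGCTG. *Myog* also held 2 matches, at 138 and 12 bases before the start, and *Nes* held 0. In the windows not printed, *Synm* held 1 match, *Krt18* 1, *Krt8* 2 and *Vim* 0, but by the GENCODE M21 annotation all 250 bases of the *Vim* window, 140 of the *Krt8* window and 36 of the *Krt18* window lie in exons of these genes, as do 15 bases each of the *Nes* and *Myog* windows. Of 32817 RefSeq windows of this length, 66.2% held CANNTG and 13.01% held CAGCTG, and of the 8540 windows of tested genes 55.6% and 11.37%. These matches describe the letters of the window only.

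None of the 7 genes was called different between the groups by edgeR, and for each of them the levels overlapped. At an unadjusted p under 0.05, which 11.9% of all genes tested reached, edgeR gave 0 of the 5 that passed the filter, and DESeq2 called 0 of these (0.28% of all genes it tested). The edgeR fit over all 8551 genes with enough counts called 67 genes (0.784%) at an adjusted p under 0.05. Relative to control, 40 of them (0.468% of all tested) were higher in the cKO-labelled libraries and 27 (0.316%) lower (45 and 18 when libraries were scaled by total counts only). The number called depended on single libraries, being 6 without *Piezo1* cKO 2, 29 without *Piezo1* cKO 3, 155 without *Piezo1* cKO 1, 105 without control 1 and 130 without control 3. *Vim*, *Des*, *Nes*, *Plec* and *Krt18* passed the filter on low counts, and *Krt8* and *Synm* did not. Of all genes tested, 16.5% showed no overlap between the groups (8.2% higher and 8.31% lower in the cKO-labelled libraries), against 0 of the 5 filament genes tested. The median log2 fold change of these 5 was 0.10 (3 positive, 2 negative), beside 0.0023 for all genes tested. Levels are given below in CPM, the counts of a gene relative to its library's total, normalised between libraries by edgeR's TMM method, and p-values measure the spread between these samples, which the labels do not tie to separate mice. In bulk RNA, fewer cells of a type and less RNA per cell cannot be told apart.

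**Figure D1:**
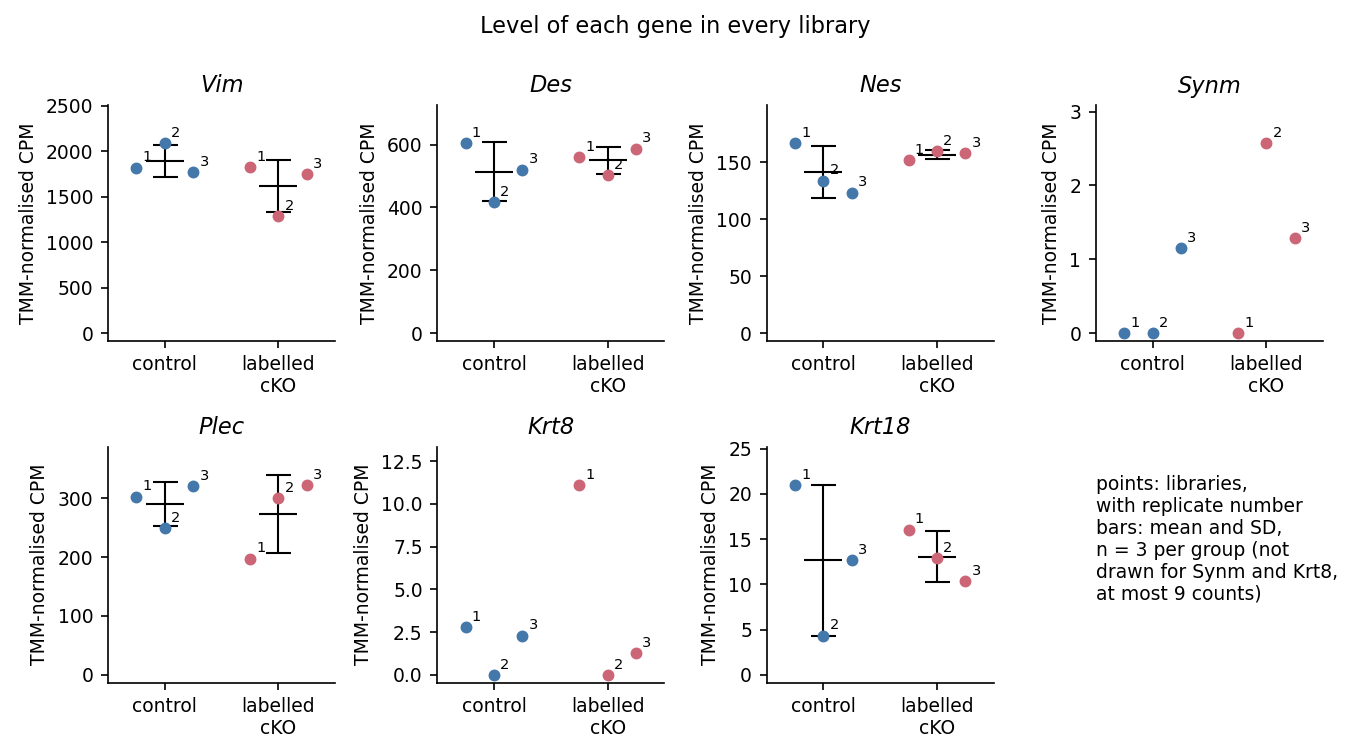
TMM-normalised CPM (y axis, from 0, a separate scale for each gene) of the 7 genes in the 3 control libraries and the 3 cKO-labelled libraries. Points are libraries with their replicate number, and bars are the mean and SD (n = 3 each), left out for *Synm* and *Krt8*; in each panel the points of the groups overlap.

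*Vim*, which encodes vimentin, occupies positions 13573927 to 13582826 of chromosome 2 (GRCm38, used for all genes here), on the plus strand (ENSMUSG00000026728). Its counts were 1299, 1924 and 1539 (control) and 1477, 1001 and 1353 (cKO-labelled). These corresponded to 1819, 2091 and 1770 CPM and to 1824, 1288 and 1747 CPM. The low value was that of *Piezo1* cKO 2 and the high value that of control 2. *Vim* was at 1893 ± 173 CPM (control) and 1620 ± 290 CPM (cKO-labelled) (SD, n = 3 each), and its log2 fold change was -0.23 (SE 0.16, edgeR adjusted p = 0.601). Its 95% interval ran from 0.690-fold to 1.06-fold. Without *Piezo1* cKO 2 the log2 fold change was -0.087.

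*Des*, which encodes desmin, lies on chromosome 1 from 75360329 to 75368579, on the plus strand (ENSMUSG00000026208). It had 432, 383 and 452 counts (control) and 453, 391 and 455 (cKO-labelled). Normalised, these were 605, 416 and 520 CPM and 559, 503 and 587 CPM. Control 2 was the lowest library and control 1 the highest, so that all 3 cKO-labelled libraries lay inside the range of the control libraries. The means were 514 ± 94.5 CPM and 550.0 ± 42.9 CPM (SD, n = 3 each), and the log2 fold change was 0.10 (SE 0.14, edgeR adjusted p = 0.845), with a 95% interval from 0.887-fold to 1.30-fold. Without control 2 the sign turned, to -0.025.

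*Nes*, which encodes nestin, a marker of stem and progenitor cells that is also found in myoblasts, lies on chromosome 3 from 87971078 to 87980451, on the plus strand (ENSMUSG00000004891). Its counts of 119, 123 and 107 (control) and 123, 124 and 122 (cKO-labelled) gave 167, 134 and 123 CPM and 152, 160 and 157 CPM. The cKO-labelled libraries lay close together, between control 2 and control 1. Their coefficient of variation was 2.54%, less than the 9.02% that counting error alone gives at this number of counts, and that of the control libraries was 16.1%. The log2 fold change was 0.16 (SE 0.15, edgeR adjusted p = 0.743), with a 95% interval from 0.905-fold to 1.37-fold. Without control 3 it was 0.063, and without control 1 it was 0.29.

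*Plec*, the gene of the linker plectin, lies on chromosome 15 from 76170974 to 76232574, on the minus strand (ENSMUSG00000022565), and has 22 annotated transcripts in GENCODE M21. Counts over the gene do not separate these transcripts, which differ in their first exons. It had 216, 229 and 279 counts (control) and 160, 233 and 250 (cKO-labelled). At 303, 249 and 321 CPM against 198, 299.8 and 323 CPM, *Piezo1* cKO 1 was the lowest library and the other 2 cKO-labelled libraries lay among the control libraries or just above. The log2 fold change was -0.089 (SE 0.15, edgeR adjusted p = 0.880), with a 95% interval from 0.768-fold to 1.15-fold, and without *Piezo1* cKO 1 it was 0.11. The gene *Parp10* overlaps *Plec* on the same strand and had 14 counts over the 6 libraries.

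*Synm*, which encodes synemin, lies on chromosome 7 from 67730160 to 67759742, on the minus strand (ENSMUSG00000030554). It was detected in 3 of 6 libraries, with 0, 0 and 1 counts (control) and 0, 2 and 1 (cKO-labelled). All 6 values were under the floor of 3 counts, the most that a count of 0 allows, which corresponds to between 3.22 and 4.13 CPM, so no fold is given and a difference was not detectable at this depth. Floors, and the Poisson interval given for *Krt8*, cover counting error only. *Ttc23*, on the opposite strand, overlaps *Synm*, and the strand setting of the counting is not given in the sources used here.

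*Krt8* and *Krt18*, which encode the keratin pair of simple epithelia, are neighbours on chromosome 15 with 23.7 kb between them. *Krt8* lies from 101996698 to 102004482 on the minus strand (ENSMUSG00000049382) and *Krt18* from 102028180 to 102032027 on the plus strand (ENSMUSG00000023043). *Krt8* had 2, 0 and 2 counts (control) and 9, 0 and 1 (cKO-labelled). Only *Piezo1* cKO 1 was above the floor of 3 counts, and the pooled counts of 4 and 10 gave a ratio of rates of 2.78 (95% interval 0.802 to 12.1, exact Poisson), which compares these libraries. In edgeR, with *Krt8* added to the genes tested, the log2 fold change was 1.32 (SE 1.00, adjusted p = 0.652), and without *Piezo1* cKO 1 it was -1.13. *Krt18* was counted in all 6 libraries, with 15, 4 and 11 counts (control) and 13, 10 and 8 (cKO-labelled). Control 2 was the lowest and control 1 the highest library, at 4.35 and 21.0 CPM. The log2 fold change of *Krt18* was 0.12 (SE 0.42, edgeR adjusted p = 0.952), with a 95% interval from 0.604-fold to 1.95-fold. Without control 2 it was -0.32, and without *Piezo1* cKO 1 it was -0.055. Reads of keratin genes can be shared with processed pseudogenes, and the treatment of reads with several mapping places is not given in the sources used here, so these low levels are uncertain to that extent.

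**Figure D2:**
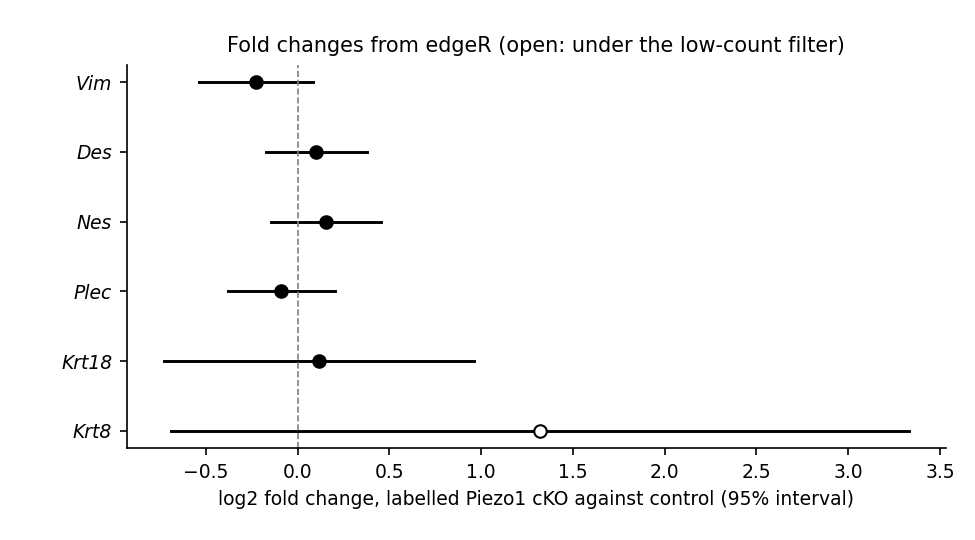
Log2 fold change (x axis) of the cKO-labelled libraries against control from edgeR, with 95% intervals, for *Vim*, *Des*, *Nes*, *Plec*, *Krt18* and *Krt8* (open point, under the low-count filter). All 6 intervals include 0, and they are narrow for the first 4 genes (for *Des* from 0.887-fold to 1.30-fold) and wide for the keratins.

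Ratios of counts within a library need no scaling between libraries, and were compared for 3 pairs. For every 100 *Vim* counts there were 33.3, 19.9 and 29.4 *Des* counts in control and 30.7, 39.1 and 33.6 in the cKO-labelled libraries. Control 2 had the fewest and *Piezo1* cKO 2 the most, and the groups overlapped through control 1. The log2 ratio of *Des* to *Vim* was higher by 0.35 on average in the cKO-labelled libraries (two-sided exact permutation test, p = 0.2, adjusted over the 3 ratios 0.45, where 3 libraries against 3 allow no p under 0.1). Without control 2 this difference was 0.13. For *Nes* there were 9.16, 6.39 and 6.95 counts per 100 *Vim* counts in control and 8.33, 12.4 and 9.02 in the cKO-labelled libraries, with a mean difference in log2 ratio of 0.40 (two-sided exact permutation test, p = 0.3, adjusted 0.45). Without *Piezo1* cKO 2 the difference for *Nes* was 0.23. The log2 ratio of *Krt8* to *Krt18* differed by 0.20 (two-sided exact permutation test, p = 0.9, adjusted 0.9). It rests on *Krt8* counts mostly under the floor, whereas the *Krt18* counts were above it in all 6 libraries. Its sign turned without *Piezo1* cKO 1 (-0.78) and without control 2 (-0.050), and without *Piezo1* cKO 2 it was 1.16.

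The levels of *Vim*, *Des*, *Nes* and *Plec* are set here beside the differentiation genes of the same libraries, with no test of the difference in range. The list of myogenic differentiation genes held 20 genes of muscle contractile and calcium-handling proteins, fusion factors and regulators, of which 11 were tested. Of these 11, 8 reached the filter's cutoff of 12.7 CPM in fewer than 3 control libraries, *Actc1* and *Tnnc1* in 0 of them, but in all 3 cKO-labelled libraries, so that part of the list was tested because it was high there, and its counts below support nothing. Averaged over these 11 and centred on the 6 libraries, log2 CPM was -0.26, -1.95 and -0.70 in control and 0.28, 1.91 and 0.72 in the cKO-labelled libraries, a 14.5-fold range between control 2 and *Piezo1* cKO 2. For the 3 genes at the filter's cutoff in all 6 libraries, the highest CPM was 6.32 times the lowest for *Tnnt3*, 7.33 times for *Acta1* and 4.81 times for *Ttn*. *Myog* had 40, 3 and 45 counts (control) and 63, 203 and 92 (cKO-labelled). Of the 11 tested genes 0 were called by edgeR, 7 had an unadjusted p under 0.05 (11.9% of all genes tested), and 2 were called by DESeq2 (0.28% of the genes it tested). The most abundant of them, the actin gene *Acta1*, had 46, 57 and 80 counts (control) and 133, 353 and 205 (cKO-labelled) (log2 fold change 2.01, SE 0.49, edgeR adjusted p = 0.241). Across the same libraries the ratio of the highest to the lowest CPM was 1.45 for *Des*, 1.35 for *Nes*, 1.62 for *Vim* and 1.63 for *Plec*, beside a median of 1.61 over all genes tested. It was 4.83 for *Krt18*, which had at most 15 counts. The share of all tested genes with a smaller ratio was 19.2% for *Nes*, 32.1% for *Des*, 51.5% for *Vim*, 52.5% for *Plec* and 98.5% for *Krt18*, a rank that also depends on how many counts a gene has.

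**Figure D3:**
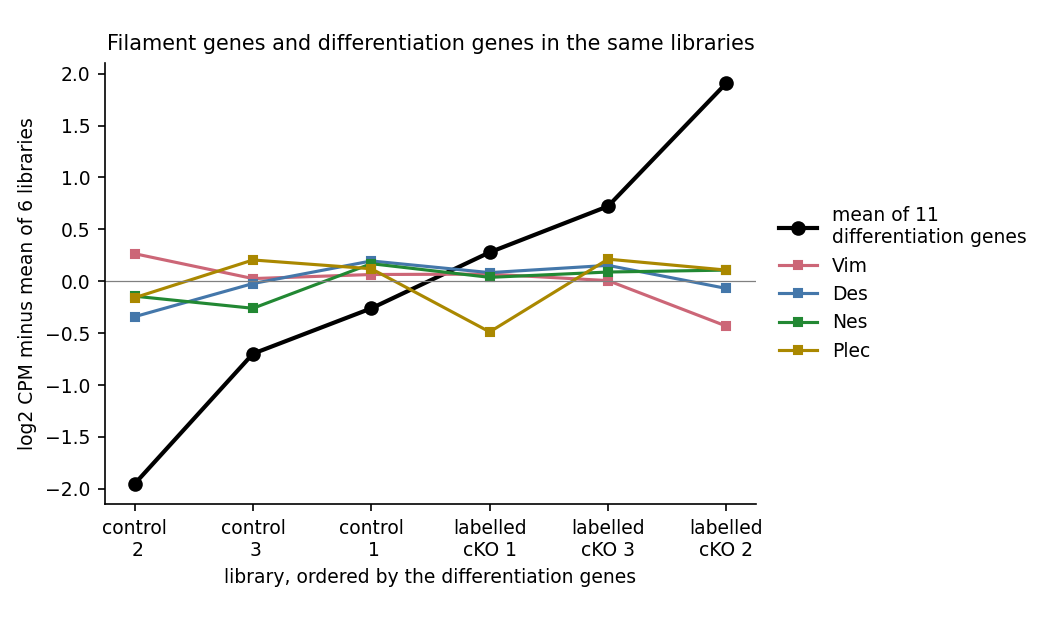
Log2 CPM relative to the mean of the 6 libraries (y axis) of *Vim*, *Des*, *Nes* and *Plec* and of the mean of 11 differentiation genes, with libraries ordered by the latter (x axis). The black line runs from -1.95 in control 2 to 1.91 in *Piezo1* cKO 2, and its climb follows from this ordering. Part of the 11 genes passed the filter because they were high in the cKO-labelled libraries, so no comparison of ranges is drawn. The filament genes shown lie between -0.49 and 0.27.

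In all, 13 relations across the 6 libraries were computed, and 0 of them had an adjusted p under 0.05. Those with the differentiation genes use the mean of the 11, which includes genes that passed the filter because they were high in the cKO-labelled libraries. That of *Vim* with the differentiation genes had the smallest p. Pearson's r was -0.89 (exact permutation p = 0.0292, adjusted 0.379) and Spearman's rho -0.77 (exact permutation p = 0.103). With control 2 and *Piezo1* cKO 2 left out, r was -0.23, so that the relation rests on these libraries. With each group centred on its own mean, which was added with the values already known, r was -0.90, negative in both groups (exact permutation within groups, p = 0.0556, adjusted 0.722 over the 13 relations, where 36 arrangements allow no p under 0.0278). With the mean of *Tnnt3*, *Acta1* and *Ttn*, the 3 of the 11 genes at the filter's cutoff in all 6 libraries, also added later, r was -0.90 for *Vim* (exact permutation p = 0.0292, adjusted 0.204 over the 7 filament genes), 0.49 for *Des* and 0.60 for *Nes* (adjusted 0.445 for both). For *Des* with the differentiation genes r was 0.49 (rho 0.26, exact permutation p = 0.314 and 0.658, adjusted 0.583 for r), and 0.53 without the same 2 libraries. *Nes* gave r = 0.64 with these genes (rho 0.60, exact permutation p = 0.181 and 0.242, adjusted 0.583 for r). *Krt8* and *Krt18*, whose proteins pair, had r = 0.60 (rho 0.70, exact permutation p = 0.231 and 0.144, adjusted 0.583 for r), with most *Krt8* values under the floor. *Des* with *Vim* had r = -0.19 (rho -0.14, exact permutation p = 0.744 and 0.803, adjusted 0.880 for r), and without control 1 and control 2 the sign turned, to r = 0.68. The other 8 relations had adjusted p-values from 0.583 to 0.967.

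The genes whose log2 CPM was most like that of each filament gene over the 6 libraries were sought among tested genes with a mean of at least 20 CPM. For *Vim* these were *Eif6* and *Rpl28* (r = 0.993 and 0.991), a ribosome assembly factor and a ribosomal protein gene, and for *Des* they were *Fkbp10* and *Lzic* (r = 0.987 and 0.968). For *Nes* they were *Tmem268* and *Abhd17b* (r = 0.995 and 0.986), for *Plec* they were *Cdc16* and *Pmepa1* (r = 0.991 and 0.986), and for *Krt18* they were *Arrb2* and *Nfkb1* (r = 0.991 and 0.986). These genes were picked as the highest of all genes searched over 6 libraries, so their r is high by selection. An r over 0.9 with *Vim* was reached by 208 of 7355 genes (2.83%), against 53 (0.721%) with *Des*.

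Among other cytoplasmic filament genes, 17 of 26 listed were in the count table and 1 had enough counts to be tested. This was *Krt10*, a keratin of differentiating epidermis, with 26, 28 and 40 counts (control) and 32, 39 and 29 (cKO-labelled) (log2 fold change 0.17, SE 0.25, edgeR adjusted p = 0.855). *Sync*, the gene of the muscle filament protein syncoilin, had 1, 2 and 1 counts (control) and 4, 4 and 3 (cKO-labelled). These values lay near the floor of 3 counts and were not tested. *Nefm*, which encodes a neurofilament subunit, had 9, 14 and 3 counts (control) and 3, 1 and 4 (cKO-labelled). The 3 lamins, the filaments of the nucleus, were tested and not called, and *Lmna* was at 1557 ± 124 CPM (control) and 1450 ± 290 CPM (cKO-labelled) (SD, n = 3 each).

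Of 20 listed cytolinkers and anchors, 12 were tested, and edgeR called 0 of them higher and 0 lower, with a median log2 fold change of 0.16. Of the 12, 2 had an unadjusted p under 0.05 in edgeR (11.9% of all genes tested), and DESeq2 called 0. The most abundant was *Zyx*, which encodes the adhesion protein zyxin, at 390 ± 36.0 CPM (control) and 430 ± 57.2 CPM (cKO-labelled) (SD, n = 3 each). The spectraplakin genes *Dst* and *Macf1* had log2 fold changes of 0.14 and 0.18 (adjusted p = 0.877 and 0.779, edgeR). In 2 of the 12 the groups did not overlap, a share near the 16.5% of all genes tested, and these 2 are named as values only, after they were seen. *Itga6*, the gene of an integrin subunit that plectin can reach through its partner *Itgb4*, had 30, 13 and 41 counts (control) and 46, 61 and 55 (cKO-labelled) (log2 fold change 1.02, SE 0.27, edgeR adjusted p = 0.0756). *Itgb4* itself had a log2 fold change of 0.20 (adjusted p = 0.774, edgeR). *Dtna*, which encodes a dystrobrevin of the dystrophin complex that synemin can bind, had 9, 8 and 11 counts (control) and 19, 27 and 12 (cKO-labelled) (log2 fold change 1.12, SE 0.36, edgeR adjusted p = 0.134). *Dtna* reached the filter's cutoff in 0 control libraries and in all 3 cKO-labelled ones, and so was tested because it was high there.

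The 7 tested genes of 9 listed filament chaperones and turnover factors had log2 fold changes from -0.24 to 0.49, with a median of 0.12, and 0 were called (0 at an unadjusted p under 0.05 in edgeR and 0 by DESeq2). *Cryab*, the gene of the chaperone αB-crystallin that protects desmin filaments, was at 413 ± 59.3 CPM (control) and 379 ± 37.4 CPM (cKO-labelled) (SD, n = 3 each), and *Hspb1* at 487 ± 102.4 and 546 ± 56.5 CPM. Of the 10 listed kinases and phosphatases that act on vimentin or desmin, all were tested, 7 had negative log2 fold changes, the median was -0.20 and 0 were called, with 3 at an unadjusted p under 0.05 in edgeR (11.9% of all genes tested) and 0 called by DESeq2. The most abundant was *Ppp2ca*, a phosphatase catalytic subunit gene, at 547 ± 25.5 CPM (control) and 490 ± 47.9 CPM (cKO-labelled) (SD, n = 3 each). *Cdk1*, the mitotic kinase, was the only one of the 10 with groups that did not overlap (16.5% of all genes tested), and is named as a value only, after it was seen. It had 230, 263 and 244 counts (control) and 187, 176 and 165 (cKO-labelled) (log2 fold change -0.40, SE 0.14, edgeR adjusted p = 0.159). *Aurkb* and *Plk1*, whose kinases phosphorylate vimentin during division, had log2 fold changes of -0.44 and -0.31 (adjusted p = 0.234 and 0.446, edgeR).

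**Figure D4:**
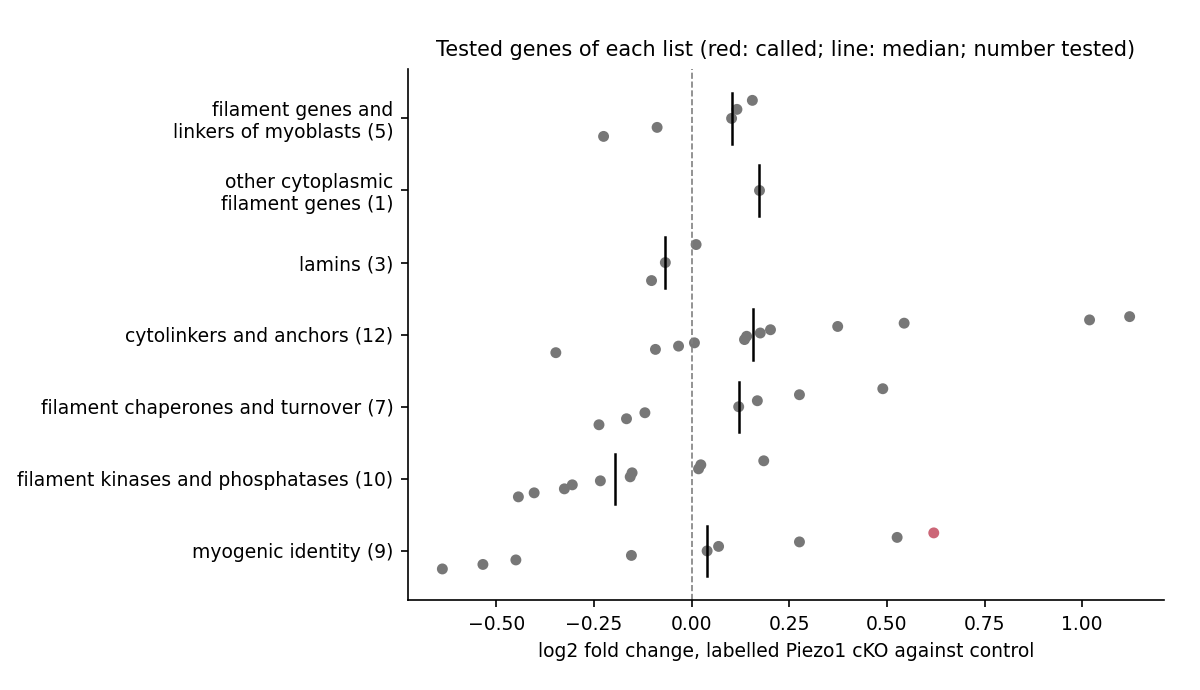
Log2 fold change (x axis) of the tested genes of 7 lists, cKO-labelled libraries against control, with the number tested in brackets, the median as a line and called genes in red. The filament genes lie between -0.23 and 0.16, and among the genes shown the only one called is *Ncam1* of the myogenic identity list.

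The cells were checked against markers. Of 10 listed genes of myogenic identity, 9 were tested, and *Myod1* had 1091, 1225 and 1220 counts (control) and 1175, 823 and 1021 (cKO-labelled). *Pax7* had 10, 26 and 19 counts (control) and 16, 5 and 12 (cKO-labelled). *Ncam1*, an adhesion molecule of myoblasts, was the only one of the 9 called, with 117, 152 and 169 counts (control) and 177, 206 and 250 (cKO-labelled) (log2 fold change 0.62, SE 0.14, edgeR adjusted p = 0.0110). Its groups did not overlap, but the call was lost without control 1 (edgeR adjusted p = 0.0524), without *Piezo1* cKO 2 (0.164) and without *Piezo1* cKO 3 (0.321). The call was also lost with the replicate number as a block (edgeR adjusted p = 0.0552) and with DESeq2 (0.211). The groups did not overlap in 4 of the 9 (16.5% of all genes tested), and 4 had an unadjusted p under 0.05 in edgeR (11.9%). Besides *Ncam1* these without overlap were *Cdh15*, an adhesion gene of myoblasts with a log2 fold change of 0.53 (edgeR adjusted p = 0.118), *Vcam1*, whose protein was used for the sort, at -0.45 (0.185), and *Sdc4*, a syndecan gene, at -0.53 (0.0617). Epithelial and mesothelial markers, listed because such cells carry keratins 8 and 18, had 7 of 8 genes in the table and summed to 71.4, 7.61 and 33.4 CPM (control) and 19.8, 27.0 and 27.1 (cKO-labelled). The most abundant was *Cldn4*, with 43, 5 and 18 counts (control) and 7, 9 and 17 (cKO-labelled), while *Epcam* had at most 1 and *Cdh1* at most 2 counts in a library. Control 1 was the highest and control 2 the lowest library for both *Krt18* and this sum, but the order between them differed. *Piezo1* cKO 1 was at 16.1 CPM for *Krt18* and 19.8 CPM for the sum, and control 3 at 12.7 and 33.4 CPM. The part of such cells in the *Krt18* level was not tested. Schwann and glial markers, whose cells also carry nestin, summed to 11.2, 8.69 and 5.75 CPM (control) and 4.94, 5.15 and 5.16 (cKO-labelled). These sums did not overlap, were at most 8 counts a library, and their part in the level of *Nes* was not tested. Endothelial markers summed to at most 7.0 CPM. Of 7 immune markers 2 were in the table, *Cd68* with 5 to 13 counts and *Lyz2* with 11 counts in control 2 and at most 1 elsewhere. Fibro-adipogenic markers summed to between 9.78 and 38.6 CPM, and overlapped between the groups. *Pdgfra* had 4, 3 and 8 counts (control) and 1, 1 and 3 (cKO-labelled). *Ly6a*, the Sca1 gene that the sort selected against, had 2, 2 and 3 counts (control) and 5, 8 and 9 (cKO-labelled). These *Ly6a* counts did not overlap (16.5% of all genes tested), but the gene did not pass the filter and was not tested. Its control counts were at or under the floor of 3. Markers of pericytes and smooth muscle cells summed to 47.6, 34.8 and 50.6 CPM (control) and 60.5, 72.1 and 95.5 (cKO-labelled), mostly from *Cspg4*. *Rgs5* had 0, 0 and 1 counts (control) and 2, 4 and 6 (cKO-labelled), whereas *Pdgfrb*, with 3, 3 and 10 counts (control) and 2, 7 and 3 (cKO-labelled), *Notch3*, *Abcc9* and *Myh11* overlapped. *Cspg4*, the only 1 of these genes tested, was not called (log2 fold change 0.76, SE 0.25, edgeR adjusted p = 0.143). Its levels did not overlap between the groups (16.5% of all genes tested), and neither did the sums. The part of such cells in the levels of *Vim*, *Des* and *Nes*, which pericytes also express, was not tested.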

How the data were processed

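Total RNA of cultured MuSCs was converted to UMI-labelled cDNA. Per the submitters' processing notes, STAR 2.7.9a, featureCounts 2.0.1 and UMI-tools 1.1.1 were used with GRCm38, and the authors deposited counts of UMIs per gene for each library. Strand and multi-mapping settings are not given in the sources used here. From these counts, genes were filtered (filterByExpr, min.count 10), TMM-normalised and tested with edgeR 4.0.16 (quasi-likelihood, Benjamini-Hochberg adjustment) in R 4.3.3, after the code was tested on simulated data. DESeq2 1.42.0 and limma 3.58.1 (voom) served as alternatives. *Krt8* and *Piezo1* were fitted whether or not they passed the filter, and no fold is given for *Synm*. Log2 CPM used a prior count of 2 and within-library ratios added 0.5 to each count. The members and lists were chosen with earlier results of these data known. Named genes were all 7 members, list genes called by edgeR, the most abundant gene of a list and the 2 genes most correlated with each member, and other list genes named in the text were chosen after their values were seen. Upstream windows were available for 6 of the 7 genes (not *Plec*), and annotation was from GENCODE M21. Replicates of a group differed by more than sampling noise (chi-square per degree of freedom 1.64 to 2.61). Separate preparations from the same mouse could also do so, and this does not show that the libraries come from separate mice. All 6 libraries were counted as samples.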

Additional observations from a re-analysis of the deposited data

How the results depend on the processing

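Across 14 alternatives, 0 of 84 fold changes of the 6 fitted filament genes were called, the smallest adjusted p being 0.431, and 1 DESeq2 adjusted p was missing. The number of genes called was 32 with DESeq2 and 129 without the low-count filter, and 6 to 155 with 1 library left out. Over the other 8 alternatives the log2 fold changes kept their sign, but by over 1.5 times *Krt8* moved to 0.50 and *Krt18* to 0.35 with limma-voom, *Krt8* to 0.87 with libraries thinned to the smallest, *Krt18* to 0.063 with DESeq2, and with total counts only *Des* moved to 0.17, *Krt18* to 0.18 and *Plec* to -0.014, and *Plec* to -0.13 after thinning. With 1 library left out, log2 fold changes ranged from -0.31 to -0.087 for *Vim*, -0.025 (without control 2) to 0.24 for *Des*, 0.063 to 0.29 for *Nes*, -0.23 to 0.11 (without *Piezo1* cKO 1) for *Plec*, -1.13 (without *Piezo1* cKO 1) to 1.88 for *Krt8*, -0.32 (without control 2) to 0.64 for *Krt18*, which was also negative without *Piezo1* cKO 1 (-0.055), and 0.14 to 0.93 for *Piezo1*. The log2 ratio differences ranged from 0.13 to 0.50 for *Des* to *Vim*, 0.23 to 0.55 for *Nes* to *Vim* and -0.78 (without *Piezo1* cKO 1) to 1.16 for *Krt8* to *Krt18*, which was -0.050 without control 2. With the 2 farthest libraries left out, r turned to 0.68 for *Des* with *Vim*, 0.35 for *Vim* with *Nes*, -0.55 for *Des* with *Synm* and 0.57 for *Plec* with *Vim*, and for the differentiation genes to -0.25 with *Plec* and -0.38 with *Krt18*. With each group centred, which was added after the data were seen, 0 of the 13 relations had an adjusted p under 0.05, and r turned to -0.14 for *Des* with *Synm* and to -0.24 for the differentiation genes with *Krt8*. The cause of these turns was not tested. Samples with the same replicate number did not deviate together (correlations of -0.14, -0.20 and 0.012, with 0 of 6 libraries closest to their own number), and with the replicate number as a block edgeR called 46 genes, 36 of them shared with the fit without it, and no filament gene. Without a block, *Ncam1* was called, and with it the adjusted p was 0.0552. No fold is given for *Synm*, which was under the floor of 3 counts in every library, and the depth of 726378 to 931168 counts limits what can be said of *Synm*, *Krt8* and *Krt18*.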
